A study of Mus musculus with 3 samples.

Results

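The collagen genes described here are the 28 genes of a merged count table whose symbol is Col, a number, a and a number and that held at least 20 unique molecular identifiers (UMIs) over 3 days of a mouse Leydig cell differentiation culture. The table lists 24698 genes, 42 of them with such a symbol, and 13593 genes in all reached the minimum. The members comprised 8 of 11 fibrillar collagen genes, 6 of 6 basement membrane (type IV) genes and 14 of 25 other collagen genes. Of the 14 collagen genes under the minimum, Col9a1 had 0 UMIs. The members nearest the limit were Col13a1 with 33 UMIs and Col28a1 with 39, and the nearest genes outside it were Col17a1 with 19 and Col8a2 with 16.

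Cells were taken from testes of C57BL/6 mice of 8 to 12 weeks, sorted as SCA1+/cKIT- and plated on Matrigel, a basement membrane extract that itself holds mouse collagen protein. After 18 h of recovery in medium with 10% serum, the cells were expanded for 3 days with PdgfAA, PdgfBB and Fgf2 at 10 ng/ml each and the Hedgehog agonist SAG at 0.5 uM. The differentiation medium that followed kept these 4 agents and added LiCl2 at 5 mM and the Notch pathway inhibitor DAPT at 10 uM. In the study's account, day 4 cells came from expansion medium, and those of days 7 and 14 had 3 and 10 days of differentiation medium. Day 7 against day 4 therefore also differs in medium. Drop-seq, a droplet method that tags each captured mRNA at its 3′ end with a cell barcode and a UMI, gave 1 library each for days 4, 7 and 14, so days and libraries cannot be told apart. The labels do not give the number of mice behind a library.

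Collagens are secreted proteins made of 3 chains wound into a triple helix. Fibrillar collagens assemble into the fibres of connective tissue, type IV collagens form the sheet of basement membranes, and the remaining types link, decorate or anchor these structures or span the cell membrane. In the testis, interstitial fibroblasts and peritubular myoid cells deposit fibrillar collagen, and the seminiferous tubules rest on a basement membrane rich in type IV collagen and laminin.

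The libraries held 2980, 2171 and 973 cells on days 4, 7 and 14, with 12677110, 11627440 and 5324400 UMIs and medians of 2886.5, 3285 and 3272 UMIs per cell. No cell barcode was shared between days. Levels are given as UMIs per 1000000 UMIs of the day (CPM). A UMI stands for 1 captured mRNA, so levels of different genes were compared without division by transcript length, and capture may still differ between mRNAs. Exact 95% intervals (Poisson for levels, conditional binomial for ratios) cover counting error only, and no test between days was possible with 1 library a day. Because UMIs were summed over the cells of a day, fewer cells of a type and less RNA per cell cannot be told apart. Summed marker lists moved with the days. The contractile list (Acta2, Tagln and 6 more) stood at 7544, 6384 and 503 CPM, and the proliferation list of 12 genes at 1176, 1033 and 182 CPM. The steroidogenic list (Star, Cyp17a1, Insl3 and 6 more) stood at 417, 600 and 8652 CPM. Within it, Star stood at 197, 362 and 1012 CPM, and Cyp17a1 and Insl3 were at most 7.83 CPM on days 4 and 7. Fdx1 was lower on day 7 than on day 4, at 132, 97.6 and 895 CPM, and Scarb1 stood at 53.3, 52.5 and 183 CPM. Interstitial progenitor markers (Tcf21, Pdgfra, Nr2f2 and Ly6a) stood at 803, 292 and 553 CPM. Within them, Ly6a, the gene of the SCA1 protein used in the sort, stood at 523, 64.2 and 358 CPM, and Pdgfra at 107, 65.3 and 108 CPM. Tcf21 and Nr2f2 did not follow the sum on day 14, at 30.9, 21.6 and 14.1 CPM and at 142, 141 and 72.3 CPM. Among lists for other cell types, macrophage markers stood at 8.83, 25.9 and 215 CPM, nearly all of the last from Lyz2 at 200 CPM. Within that list Cd68 stood at 0.710, 3.53 and 8.83 CPM, Ptprc had 4, 4 and 15 UMIs and Adgre1 2, 0 and 8. Csf1r went the other way at 2.76, 2.32 and 1.88 CPM, as did C1qb with 9, 4 and 0 UMIs. C1qa and Cd74 were at or below 0.188 CPM on every day. Endothelial markers at 85.2, 116 and 24.4 CPM were mostly Cdh5, with Pecam1 at most 2.24 CPM. Sertoli markers ranged from 16.2 to 35.7 CPM with Amh at 0 UMIs, germ cell markers from 19.2 to 116 CPM, cartilage and bone markers from 0.316 to 25 CPM and epithelial markers from 0 to 4.42 CPM. The part of these cells in the collagen levels was not tested.

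Collagen mRNA made up a nearly even share of each library, whereas its make-up differed between the days. The 28 genes together held 201139, 198936 and 83512 UMIs on the 3 days, which is 1.59%, 1.71% and 1.57% of all UMIs. Fibrillar collagens carried most of this mRNA on every day, at 11420, 12093 and 11431 CPM. Basement membrane collagens followed at 3216, 3371 and 2759 CPM, and the other collagens at 1230, 1645 and 1494 CPM. The summed fibrillar level on day 14 was 0.945 times that of day 7 (interval 0.936 to 0.954) and the basement membrane level 0.818 times (0.803 to 0.834). The median log2 ratio over all genes tested was 0.11 for day 7 over day 4 and -0.14 for day 14 over day 7. Set against these medians, the fibrillar ratio turned from 0.083 to -0.024 for day 7 over day 4 and from -0.081 to 0.055 for day 14 over day 7 on the log2 scale, and the basement membrane ratio turned from 0.068 to -0.039 for day 7 over day 4, so the class sums give no stable direction for these 3 steps. Differences within the classes were far larger than those between their sums.

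**Figure D1:**
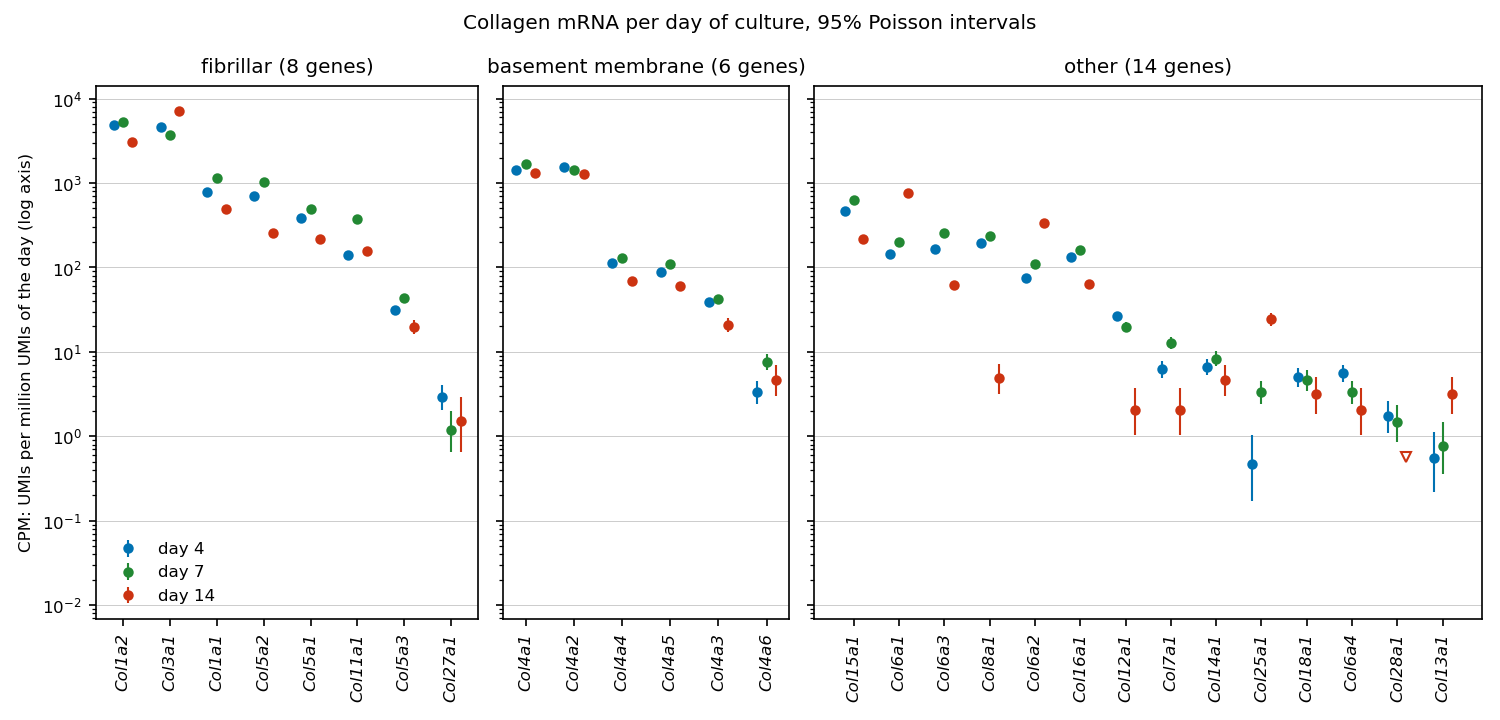
Level of each of the 28 collagen genes on days 4, 7 and 14 in CPM on a log axis, by class, with exact 95% Poisson intervals, 1 library per day. The open triangle marks Col28a1 on day 14, with 0 UMIs, drawn at the 3 UMI limit of 0.563 CPM. The day 14 points stand above both earlier days for Col3a1, Col6a1, Col6a2, Col25a1 and Col13a1, and Col8a1 lies at 4.88 CPM on day 14 after 197 and 237 CPM.

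Among the fibrillar genes, Col1a2 and Col3a1 dominated. Col1a2, which encodes the second chain of type I collagen (chr6:4504814-4541544, plus strand, GRCm38, GENCODE M21, as for the genes below), stood at 4798 CPM on day 4, 5332 on day 7 and 3096 on day 14. Col3a1, whose product forms the homotrimer of type III collagen (chr1:45311538-45349706, plus strand), stood at 4566, 3665 and 7202 CPM. The pair therefore crossed: Col1a2 was 1.72-fold lower on day 14 than on day 7 (interval 1.69 to 1.75) while Col3a1 was 1.96-fold higher (1.94 to 1.99). The UMI ratio of Col3a1 to Col1a2 was 0.952, 0.687 and 2.33 on days 4, 7 and 14. Col1a1, the gene of the other type I chain (chr11:94936224-94953042, plus strand), moved with Col1a2 at 789, 1148 and 486 CPM, although type I collagen is mostly built of 2 Col1a1 chains and 1 Col1a2 chain and the Col1a1 UMIs were 0.164, 0.215 and 0.157 times those of Col1a2.

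The 300-base promoter windows of the 2 leading genes, from 250 bases before to 50 bases after the start in RefSeq (GRCm38.p6), are shown because these genes went opposite ways from day 7 to day 14. Capitals mark matches, on either strand, to the TATA box (letters TATAAA), the CCAAT box (its own letters), the GC box (letters GGGCGG) or the half-site of the steroidogenic factor NR5A1 (letters AAGGTCA), with overlapping matches joined. The Col1a2 window (chr6:4505368-4505667, plus strand) held 2 CCAAT boxes and 2 GC boxes at 61.0% G and C. The Col3a1 window (chr1:45311288-45311587, plus strand) held 1 TATA box and none of the other letters at 37.7% G and C, against a median of 52.7% over all windows.
Col1a2: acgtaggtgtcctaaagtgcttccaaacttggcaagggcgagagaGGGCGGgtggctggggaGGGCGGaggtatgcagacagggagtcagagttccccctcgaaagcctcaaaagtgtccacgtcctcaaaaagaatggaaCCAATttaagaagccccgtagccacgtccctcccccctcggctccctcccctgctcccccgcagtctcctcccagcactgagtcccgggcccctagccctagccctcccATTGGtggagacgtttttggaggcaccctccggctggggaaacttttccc
Col3a1: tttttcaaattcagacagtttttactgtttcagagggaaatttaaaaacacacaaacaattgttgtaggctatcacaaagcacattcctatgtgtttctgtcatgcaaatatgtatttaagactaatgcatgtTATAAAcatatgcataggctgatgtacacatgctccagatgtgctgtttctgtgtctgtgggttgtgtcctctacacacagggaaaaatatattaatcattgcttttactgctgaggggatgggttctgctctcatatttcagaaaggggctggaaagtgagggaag

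Windows were listed for 23 of the 28 members, and not for Col1a1, Col5a2, Col4a3, Col12a1 and Col14a1. Among 32851 windows of all genes, 35.7% held a GC box, 37.4% a CCAAT box, 13.6% a TATA box and 4.72% the NR5A1 half-site. Of the 23 member windows, 16 held a GC box, 11 a CCAAT box, 2 a TATA box (Col3a1 and Col13a1) and 2 the half-site (Col11a1 and Col7a1). These are letter matches and not tested sites.

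The minor fibrillar chains other than Col27a1 were lower on day 14 than on day 7. Col5a2, which encodes a type V chain that co-assembles with type I collagen and which the study names as a marker of matrix-depositing myofibroblasts in these libraries (chr1:45374321-45503282, minus strand), stood at 707 CPM on day 4, 1034 on day 7 and 255 on day 14, 4.06-fold lower than on day 7 (3.84 to 4.29). Its partner Col5a1 stood at 385, 495 and 217 CPM, 2.28-fold lower on day 14 than on day 7 (2.14 to 2.43). Since Col5a2 was lower by more, the UMI ratio of Col5a1 to Col5a2 was 0.544 and 0.479 on days 4 and 7 and 0.853 on day 14. Col5a3, the third type V chain, stood at 31.3, 42.9 and 19.7 CPM. Col5a2 and Col3a1 lie tail to tail on chromosome 1 with 24614 bases between them, and their UMI ratio (Col3a1 over Col5a2) went from 3.54 on day 7 to 28.3 on day 14. Col11a1, a fibril-nucleating chain best known from cartilage (chr3:114030540-114220718, plus strand), peaked on day 7 at 375 CPM, between 142 CPM on day 4 and 155 CPM on day 14. It was 2.64-fold higher on day 7 than on day 4 (2.50 to 2.79) and 2.42-fold lower on day 14 than on day 7 (2.25 to 2.62). Its usual cartilage partners were nearly absent, with 1 UMI of Col2a1 and 8 UMIs of Col11a2 over all 3 days. Col27a1, a fibrillar gene of low level, stood at 2.92, 1.20 and 1.50 CPM, from 37, 14 and 8 UMIs.

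**Figure D2:**
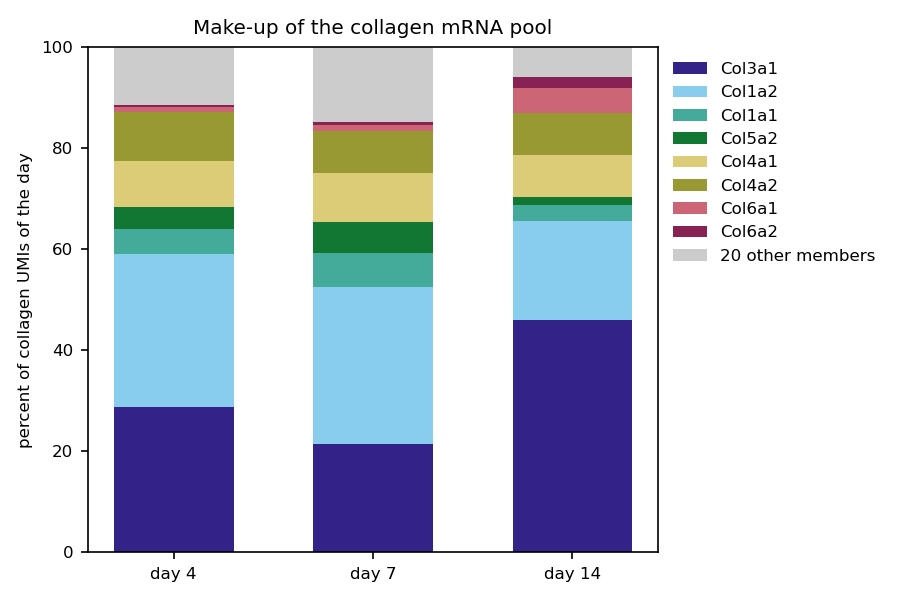
Share of each day's collagen UMIs taken by the 8 members named in the legend and by the 20 other members, in percent, 1 library per day. Col3a1 took 28.8%, 21.4% and 45.9% of collagen UMIs on days 4, 7 and 14, Col1a2 30.2%, 31.2% and 19.7%, and Col6a1 0.92%, 1.17% and 4.87%.

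The spread between cells also differed for the leading genes. In cells with at least 1500 UMIs (2227, 1742 and 794 cells), the 10th, 50th and 90th percentiles of the Col3a1 level were 1382, 4163 and 8531 CPM on day 4, 1085, 3112 and 7412 CPM on day 7 and 2612, 6086 and 12279 CPM on day 14. Those of Col1a2 were 2384, 4616 and 7565 CPM, then 2583, 4889 and 8488 CPM, then 464, 2501 and 7189 CPM. On day 14 Col3a1 was thus higher than on both earlier days at all 3 percentiles, whereas Col1a2 was lower at all 3, with the largest fold difference at the 10th. Cells of 1 library are not replicates, and percentiles of single cells include counting noise.

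The basement membrane genes differed by at most 2.04-fold between days 7 and 14. Col4a1 (chr8:11198423-11312826, minus strand), a chain of the type IV trimer found in nearly all basement membranes, stood at 1430, 1670 and 1310 CPM on days 4, 7 and 14. Col4a2 (chr8:11312805-11449287, plus strand), the other chain of that trimer, stood at 1541, 1414 and 1295 CPM. The day 14 level was 0.785 times the day 7 level for Col4a1 (0.763 to 0.807) and 0.916 times for Col4a2 (0.890 to 0.942), and the Col4a2 ratio turned to 0.0091 on the log2 scale when set against the median of all genes. Their UMI ratio stayed near 1, at 0.928, 1.18 and 1.01. These genes stand head to head with 22 bases of overlap at their starts, so their promoter windows overlap. The Col4a1 window (chr8:11312777-11313076, minus strand), shown for that overlap, held 1 CCAAT box and 1 GC box at 74.0% G and C over its whole length. Only the end of the printed sequence lies in the Col4a2 window (chr8:11312555-11312854, plus strand). That shared end holds the GC box and not the CCAAT box.
Col4a1: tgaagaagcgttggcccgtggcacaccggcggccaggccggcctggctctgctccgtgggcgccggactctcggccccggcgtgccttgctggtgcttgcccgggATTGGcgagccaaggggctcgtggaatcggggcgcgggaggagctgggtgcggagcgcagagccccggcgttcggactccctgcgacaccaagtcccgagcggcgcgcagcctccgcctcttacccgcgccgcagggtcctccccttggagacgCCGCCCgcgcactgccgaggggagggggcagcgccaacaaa

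The 4 remaining type IV genes encode chains of more restricted basement membranes and lie in head-to-head pairs, Col4a3 with Col4a4 on chromosome 1 (71 bases apart) and Col4a5 with Col4a6 on chromosome X (1308 bases apart). Col4a4 stood at 114, 128 and 69.3 CPM on days 4, 7 and 14, and Col4a3 at 38.6, 42.5 and 20.8 CPM. The UMI ratio of Col4a3 to Col4a4 was 0.338, 0.333 and 0.301, with overlapping intervals on all 3 days. Col4a5 stood at 89.0, 110 and 59.5 CPM, and Col4a6 at 3.31, 7.65 and 4.70 CPM, from 42, 89 and 25 UMIs. Within each pair both genes were lower on day 14 than on day 7, by 2.04-fold for Col4a3 (1.66 to 2.53), 1.84-fold for Col4a4 (1.64 to 2.07), 1.85-fold for Col4a5 (1.63 to 2.09) and 1.63-fold for Col4a6 (1.04 to 2.65).

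Collagen VI, the beaded microfibril that lies around cells and near basement membranes, showed the largest shift among the compared pairs of chains that share a trimer. Col8a1 and Col8a2 were not compared in this way. Its main form holds 1 chain each from Col6a1, Col6a2 and Col6a3. Col6a1 (chr10:76708792-76726168, minus strand) stood at 146, 200 and 764 CPM. Col6a2 (chr10:76595762-76623630, minus strand), its neighbour at a distance of 85161 bases, stood at 74.3, 111 and 339 CPM. Col6a3 (chr1:90765923-90843971, minus strand) went the other way, at 165, 256 and 61.8 CPM. From day 7 to day 14, Col6a1 was 3.81-fold higher (3.62 to 4.01), Col6a2 3.05-fold higher (2.84 to 3.28) and Col6a3 4.14-fold lower (3.69 to 4.65). The UMI ratio of Col6a1 to Col6a2 was 1.96, 1.80 and 2.25, whereas that of Col6a1 to Col6a3 was 0.886, 0.784 and 12.4 and that of Col6a2 to Col6a3 was 0.451, 0.435 and 5.49. These ratios are of captured mRNA and not of protein chains. Of the genes for chains that can stand in for Col6a3, Col6a4 stood at 5.60, 3.35 and 2.07 CPM, and Col6a5 and Col6a6 had 2 UMIs each over the 3 days.

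**Figure D3:**
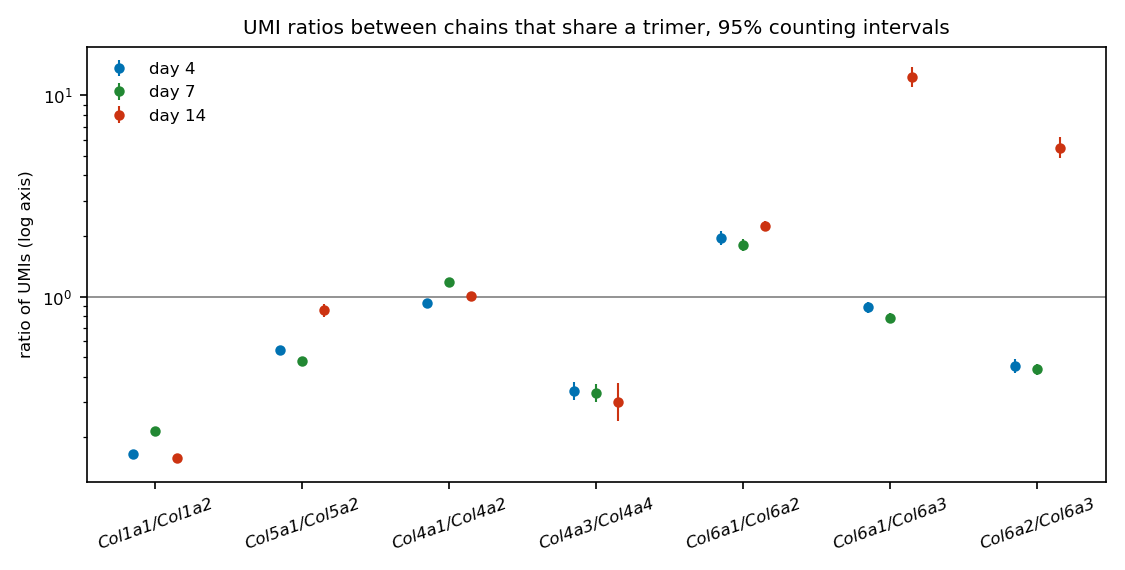
UMI ratio between collagen genes whose chains share a trimer, on days 4, 7 and 14, on a log axis with exact 95% counting intervals, 1 library per day. The ratios to Col6a3 stand at 12.4 (Col6a1) and 5.49 (Col6a2) on day 14 and below 1 on both earlier days, whereas Col6a1 to Col6a2 stays between 1.80 and 2.25.

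The promoter windows of the 3 collagen VI genes are shown because Col6a1 and Col6a2 moved together and Col6a3 against them. The Col6a1 window (chr10:76725995-76726294, minus strand) and the Col6a3 window (chr1:90843922-90844221, minus strand) held none of the 4 letter patterns, and the Col6a2 window (chr10:76623355-76623654, minus strand, 1 of 2 listed for this gene) held 3 GC boxes, 2 of them overlapping. The G and C content was 57.3%, 56.3% and 64.3% for Col6a1, Col6a3 and Col6a2.
Col6a1: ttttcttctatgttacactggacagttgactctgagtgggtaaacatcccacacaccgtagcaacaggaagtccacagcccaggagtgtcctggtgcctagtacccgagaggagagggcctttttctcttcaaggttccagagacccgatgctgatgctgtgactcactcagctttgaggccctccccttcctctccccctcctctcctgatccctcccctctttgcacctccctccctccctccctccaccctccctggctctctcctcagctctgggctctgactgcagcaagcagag
Col6a2: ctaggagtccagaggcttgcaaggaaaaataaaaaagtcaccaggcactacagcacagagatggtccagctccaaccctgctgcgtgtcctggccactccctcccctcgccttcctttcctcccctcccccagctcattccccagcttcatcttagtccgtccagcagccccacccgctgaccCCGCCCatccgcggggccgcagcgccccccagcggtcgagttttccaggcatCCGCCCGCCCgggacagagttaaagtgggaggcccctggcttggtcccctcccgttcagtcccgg
Col6a3: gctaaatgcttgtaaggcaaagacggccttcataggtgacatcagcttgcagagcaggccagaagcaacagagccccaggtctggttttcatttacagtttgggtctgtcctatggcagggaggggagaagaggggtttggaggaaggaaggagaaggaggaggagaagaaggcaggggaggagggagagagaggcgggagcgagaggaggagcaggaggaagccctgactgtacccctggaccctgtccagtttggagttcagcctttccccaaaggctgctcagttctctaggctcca

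Most of the other collagens were lower on day 14 than on day 7. Col8a1, the gene of a short-chain network collagen of vessel walls and the cornea (chr16:57624258-57754737, minus strand), stood at 197, 237 and 4.88 CPM, from 2494, 2756 and 26 UMIs. It was 48.5-fold lower on day 14 than on day 7 (33.1 to 74.4), the largest difference of any member between successive days. The gene for its usual partner chain, Col8a2, had 7, 8 and 1 UMIs. Col15a1, which encodes a basement membrane-associated collagen with a cleavable end fragment (chr4:47208161-47313167, plus strand), stood at 460, 627 and 220 CPM and was 2.85-fold lower on day 14 than on day 7 (2.68 to 3.04). Col18a1, its closest relative, stood at 5.05, 4.64 and 3.19 CPM. Col16a1, a fibril-associated collagen (chr4:130047840-130099283, plus strand), stood at 134, 159 and 62.9 CPM and was 2.53-fold lower (2.26 to 2.86).

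The 8 other members under 100 CPM, counting Col18a1 and Col6a4 above, ranged from 0 to 27.0 CPM. All 8 are named, here or above, though only their range and number had been planned. The fibril-associated Col12a1 stood at 27.0, 19.8 and 2.07 CPM and Col14a1 at 6.63, 8.34 and 4.70 CPM. Col7a1, the gene of the anchoring fibrils of the skin, stood at 6.23, 12.6 and 2.07 CPM. Col28a1 stood at 1.74 and 1.46 CPM on days 4 and 7 and had 0 UMIs on day 14, with an exact interval of up to 0.693 CPM. With the day 14 library set to 3 UMIs (0.563 CPM), it was 2.59-fold lower than on day 7. The exact interval of the ratio reaches down to 1.89-fold, so a 2-fold difference is not assured. The transmembrane collagens went the other way. Col25a1, known from neurons and muscle innervation (chr3:130131501-130599877, plus strand), stood at 0.473, 3.35 and 24.2 CPM, from 6, 39 and 129 UMIs. It was 7.09-fold higher on day 7 than on day 4 (2.98 to 20.5) and 7.22-fold higher again on day 14 than on day 7 (5.01 to 10.6). Col13a1 stood at 0.552, 0.774 and 3.19 CPM, from 7, 9 and 17 UMIs.

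Counted over the members, 4 of 28 were at least 2-fold higher on day 7 than on day 4 (Col11a1, Col4a6, Col7a1 and Col25a1), where 6.09% of all genes tested were, and 1 was at least 2-fold lower (Col27a1), where 4.84% were. The median log2 ratio was 0.32 over the members and 0.11 over all genes. On day 14 against day 7, 13 of 28 were at least 2-fold lower, where 16.9% of all genes were, and 4 at least 2-fold higher (Col6a1, Col6a2, Col25a1 and Col13a1), where 13.4% were. The 13 comprised 5 of 8 fibrillar genes (Col1a1, Col5a1, Col5a2, Col5a3 and Col11a1), 1 of 6 basement membrane genes (Col4a3) and 7 of 14 others (Col15a1, Col6a3, Col8a1, Col16a1, Col12a1, Col7a1 and Col28a1). The median log2 ratio was -0.88 over the members and -0.14 over all genes. Set against the median of all genes, Col3a1 also passed the 2-fold mark on day 14, at a log2 ratio of 1.11 in place of 0.97, and Col4a3 (-0.89) and Col5a3 (-0.99) no longer did. The counting interval lay below 1 for 20 members and above 1 for 5, and held 1 for Col27a1, Col18a1 and Col6a4. On day 14 against day 4, 9 of 28 were at least 2-fold lower, where 17.7% of all genes were, and 4 at least 2-fold higher, where 17.3% were.

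**Figure D4:**
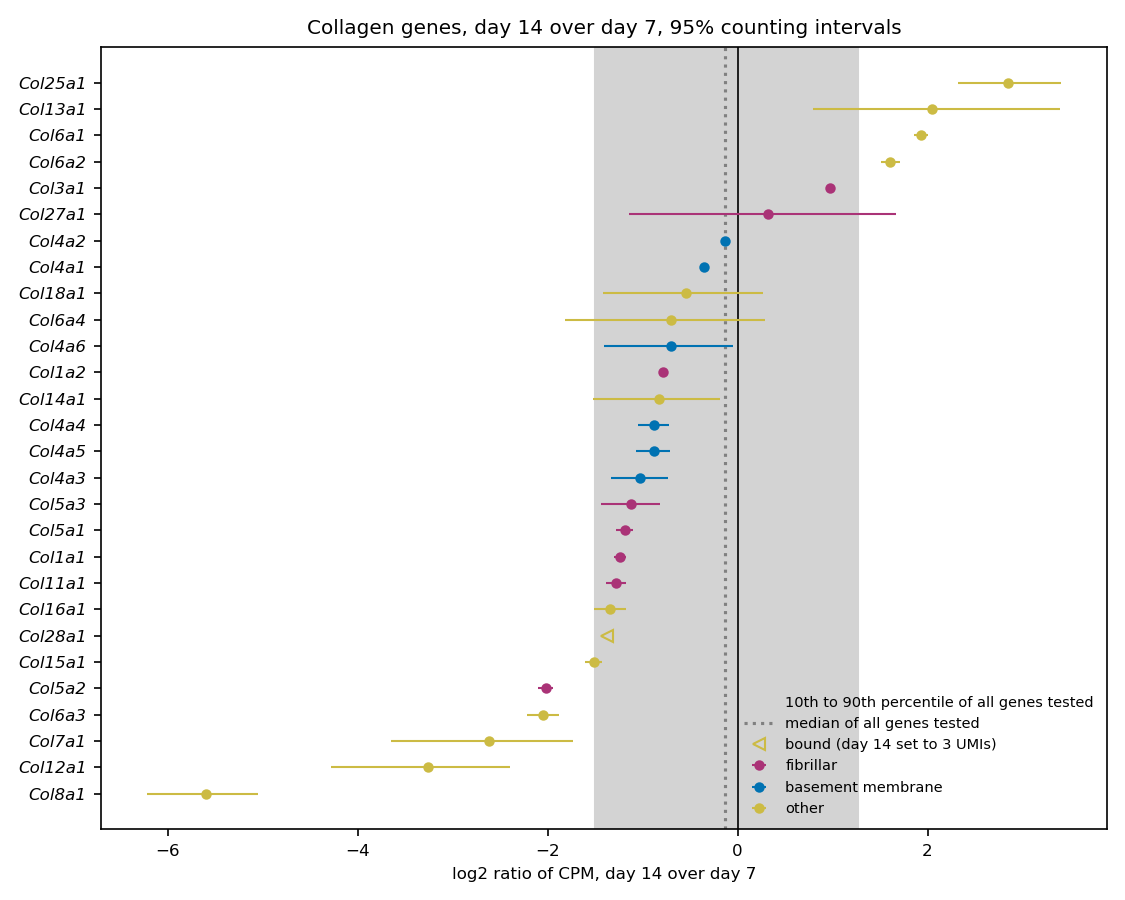
Log2 ratio of the CPM of each collagen gene on day 14 over day 7, ordered by value, with exact 95% counting intervals and 1 library per day. The grey band spans the 10th to 90th percentile of all genes tested (-1.51 to 1.26) and the dotted line their median (-0.14). Col8a1, Col12a1, Col7a1, Col6a3, Col5a2 and Col15a1 lie to the left of the band and Col6a2, Col6a1, Col13a1 and Col25a1 to its right.

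Within the day 14 library, collagen mRNA differed with the amount of steroidogenic mRNA in a cell. The 794 cells with at least 1500 UMIs were thinned to 1500 UMIs to rank them by the 9 steroidogenic genes. The low group (303 cells) had at most 3 such UMIs and the high group (274 cells) at least 12, with 217 cells between. These are ranges of a score in 1 library and not cell types, and 159 and 44 cells lay within 1 UMI of the lower and the upper limit. Median depth was 4127, 4477 and 4580.5 UMIs in the low, middle and high groups. Summed fibrillar collagens stood at 14234 CPM in the low group and 7962 in the high group, 1.79-fold lower (1.75 to 1.82). Basement membrane collagens stood at 3699 and 1695 CPM, 2.18-fold lower (2.09 to 2.28), and the other collagens at 1565 and 1311 CPM, 1.19-fold lower (1.13 to 1.26). Of the 27 members with a ratio, 19 were at least 2-fold lower in the high group, where 13.9% of all genes were, and 0 at least 2-fold higher, where 8.1% were. Of the 19, Col4a6, Col8a1, Col12a1, Col7a1, Col14a1, Col18a1 and Col6a4 had 17 UMIs or fewer in each group. The median log2 ratio was -1.49 over the members and -0.11 over all genes.

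Single members differed widely in size of difference. Col1a2 stood at 5205, 2773 and 1354 CPM in the low, middle and high groups and Col1a1 at 886, 420 and 167 CPM, a stepwise order. Col3a1 stood at 7166, 8620 and 6042 CPM, highest in the middle group. Col6a1 stood at 634, 863 and 810 CPM, 1.28-fold higher in the high than in the low group (1.18 to 1.38). Col6a2 stood at 309, 369 and 338 CPM, and the interval of its ratio held 1 (0.971 to 1.23). Those of Col25a1 (18.9, 31.4 and 22.1 CPM, ratio 1.17) and Col5a3 (21.3, 18.3 and 20.5 CPM, ratio 0.962) held 1 as well. Col6a3 stood at 137, 39.9 and 7.88 CPM, 17.3-fold lower in the high group (10.3 to 31.5). All 6 type IV genes were lower in the high group. Col4a4 stood at 169, 24.2 and 13.7 CPM, 12.3-fold lower in the high group (8.25 to 19.2), and Col4a3 at 48.5, 8.50 and 4.73 CPM. Col4a5 stood at 89.9, 56.9 and 33.1 CPM, 2.72-fold lower (2.01 to 3.71), and Col4a6 was 3.38-fold lower (1.02 to 14.4), from 12 and 4 UMIs. Col4a1 stood at 1681, 1539 and 801 CPM, 2.10-fold lower (1.97 to 2.23), and Col4a2 at 1704, 1406 and 841 CPM, 2.03-fold lower (1.91 to 2.16). Col11a1 stood at 309, 114 and 46.8 CPM, 6.62-fold lower (5.28 to 8.38). Col5a2, with 507 UMIs in the low and 428 in the high group, was 1.33-fold lower (1.17 to 1.52), whereas its partner Col5a1 stood at 345, 218 and 106 CPM.

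**Figure D5:**
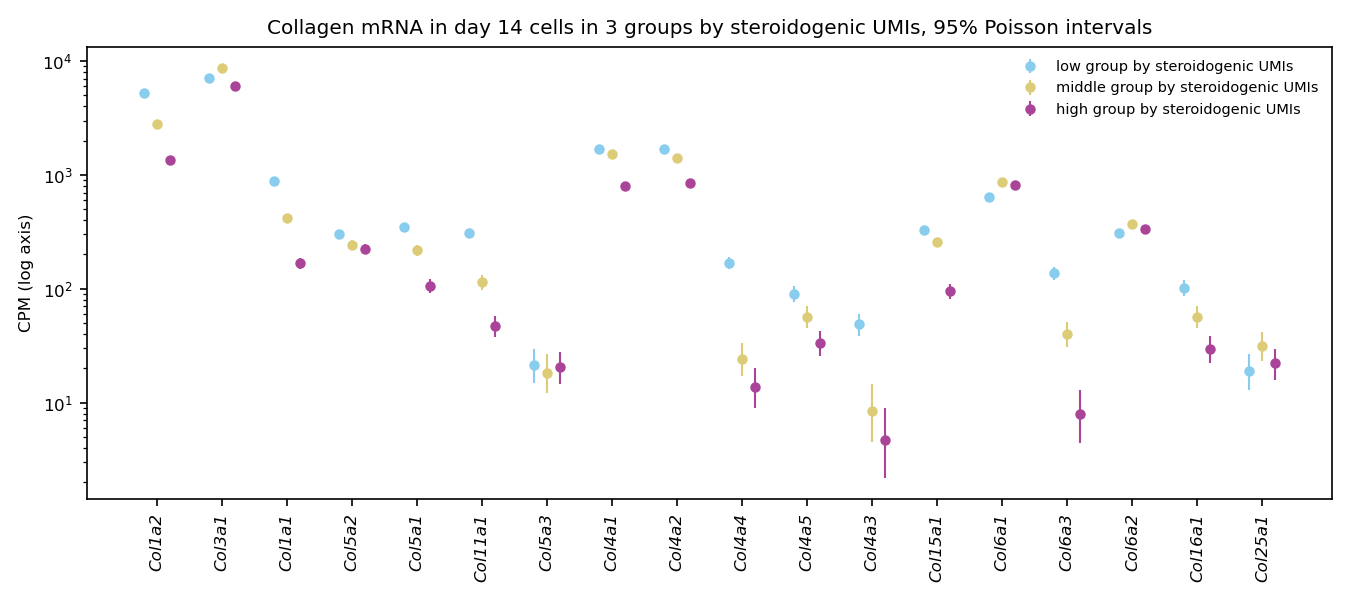
Level in CPM, on a log axis with exact 95% Poisson intervals, of the 18 collagen genes with at least 50 UMIs in the low (303 cells), middle (217 cells) and high (274 cells) groups of day 14 cells by steroidogenic UMIs, 1 library. Points descend from low to high for Col1a2, Col1a1, Col11a1, Col4a4, Col4a3 and Col6a3, and lie close together for Col3a1, Col6a1, Col6a2, Col5a3 and Col25a1.

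Set against day 7 cells of at least 1500 UMIs, the low group of day 14 differed for some members and not for others. Col3a1 was 1.97-fold higher in the low group than on day 7 (1.93 to 2.01), Col6a1 3.20-fold higher (2.97 to 3.44), Col6a2 2.86-fold higher (2.57 to 3.17) and Col25a1 5.71-fold higher (3.45 to 9.43). Col5a2 was 3.46-fold lower and Col8a1 23.6-fold lower in the low group than on day 7. Col1a2 at 0.984 times the day 7 level (0.962 to 1.01), Col4a1 at 1.01 times (0.967 to 1.05) and Col4a3 at 1.14 times (0.889 to 1.44) had intervals that held 1. Among the members named in this comparison, Col3a1, Col6a1, Col6a2, Col25a1, Col5a2 and Col8a1 differed from day 7 at both ends of the ranking. In the high group, Col3a1 was 1.66-fold and Col6a1 4.09-fold higher than on day 7. The median share of contractile UMIs per cell was 0.0469% in the low and 0% in the high group of day 14.

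On days 4 and 7 the cells were ranked by contractile mRNA, a different list from that used on day 14. Day 7 cells with at least 11 contractile UMIs of 1500 (651 cells) were set against those with at most 5 (671 cells), at median depths of 4686 and 3943 UMIs, and 190 and 328 cells lay within 1 UMI of these limits. Fibrillar collagens stood at 11094 CPM in the first and 13532 in the second, a ratio of 0.820 (0.810 to 0.830), with ratios of 0.885 for basement membrane collagens and 0.867 for the others. Col3a1 (3099 against 4607 CPM) and Col6a1 (161 against 255 CPM) were lower in contractile-high cells, and Col11a1 (421 against 306 CPM), Col5a1 (536 against 445 CPM) and Col5a2 (1077 against 953 CPM) were higher. No member was at least 2-fold higher (3.52% of all genes were) and 3 were at least 2-fold lower (7.53% were). These were Col14a1 at 2.96 against 14.8 CPM, Col25a1 at 0.911 against 7.91 CPM and Col13a1, with 0 against 9 UMIs. On day 4, cells with at least 13 contractile UMIs (792 cells) against at most 7 (863 cells) gave ratios of 0.954 for fibrillar (0.942 to 0.966), 1.14 for basement membrane (1.11 to 1.16) and 1.04 for other collagens (0.999 to 1.08), so the basement membrane sum lay on the other side of 1 than on day 7. Col4a1 (1.10 on day 4 and 0.866 on day 7), Col4a2 (1.13 and 0.873) and Col1a1 (1.13 and 0.914) also lay on opposite sides of 1 on the 2 days. The day 4 ratios were 0.839 for Col3a1, 0.765 for Col6a1, 1.44 for Col5a2 and 1.74 for Col11a1, each on the side of day 7. Col8a1, not higher in contractile-high cells on day 7 (0.990, interval 0.903 to 1.09), had 1143 against 607 UMIs on day 4, a CPM ratio of 1.77 (1.61 to 1.96). On that day 2 members were at least 2-fold higher (Col4a6, with 22 against 7 UMIs, and Col12a1), where 3.39% of all genes were. At least 2-fold lower were 3 of 28 (Col14a1, Col28a1 and Col13a1), where 8.7% were. Of these, Col28a1 had 5 against 10 UMIs and Col13a1 1 against 4, and the intervals of both ratios held 1 (0.126 to 1.51 and 0.00478 to 2.38).

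Cells with proliferation mRNA held less collagen mRNA of each class. On day 4, cells with at least 3 proliferation UMIs of 1500 (358 cells) against 0 (1562 cells) gave ratios of 0.759 for fibrillar (0.748 to 0.771), 0.747 for basement membrane (0.726 to 0.770) and 0.790 for other collagens (0.754 to 0.828). On day 7 the ratios were 0.784, 0.666 and 0.795 (286 against 1235 cells). Among single genes, Col4a3 (0.514 on day 4 and 0.555 on day 7) and Col4a4 (0.562 and 0.658) were further below 1 than Col6a3 (0.909 and 1.06) and Col6a1 (0.916 and 0.852). On day 4, 1 of 26 members with a ratio was at least 2-fold lower (Col27a1, from 27 and 3 UMIs, where 6.25% of all genes were) and 0 at least 2-fold higher (8.44% were). On day 7, 2 of 26 were at least 2-fold lower (Col4a6 and Col14a1, where 7.06% of all genes were) and 1 at least 2-fold higher (Col28a1, with 4 UMIs in the first group, where 8.58% were).

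Genes that process collagen differed by step. Of 23 genes for folding, modification and secretion in the endoplasmic reticulum, 22 reached the minimum. On day 14 against day 7, 4 were at least 2-fold higher (Plod1, P3h2, Crtap and Tmem38b), where 13.4% of all genes were. Among these, P3h2 had 8 UMIs on day 7 and 10 on day 14, and the interval of its ratio held 1 (0.970 to 7.96). At least 2-fold lower was 1 gene (P4ha3), where 16.9% were, and the median log2 ratio of the list was 0.43. Crtap, a partner in prolyl 3-hydroxylation, stood at 216, 255 and 738 CPM on days 4, 7 and 14. Serpinh1, the collagen chaperone HSP47, stood at 1922, 1984 and 1791 CPM, a day 14 level 0.903 times that of day 7 (0.881 to 0.925). Ppib, a prolyl isomerase, stood at 671, 745 and 1357 CPM.

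The genes for trimming and cross-linking outside the cell lay mostly lower. Of 10 tested of 11, 5 were at least 2-fold lower on day 14 than on day 7 (Pcolce2, Adamts14, Lox, Loxl3 and Loxl4), where 16.9% of all genes were, and 1 higher (Pcolce), where 13.4% were, with a median log2 ratio of -1.44. Lox, the lysyl oxidase that starts collagen cross-links, stood at 1095, 1869 and 61.4 CPM, 30.4-fold lower on day 14 than on day 7 (27.3 to 34.0). Pcolce, an enhancer of the protease that removes the procollagen end, stood at 817, 773 and 1841 CPM, 2.38-fold higher (2.31 to 2.45), while its relative Pcolce2 stood at 45.7, 45.3 and 2.25 CPM.

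Of 10 collagen receptor and uptake genes in the table, 9 reached the minimum. On day 14 against day 7, 4 were at least 2-fold lower (Itga10, Itga11, Itgb1 and Ddr1), where 16.9% of all genes were, and 0 higher, where 13.4% were, with a median log2 ratio of -0.87. Itgb1, the beta chain shared by the collagen-binding integrins, stood at 2033, 2064 and 839 CPM. Itga10 peaked on day 7 at 7.05 CPM, against 0.947 CPM on day 4 and 0.563 CPM on day 14, from 82, 12 and 3 UMIs.

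Of 16 basement membrane partners of type IV collagen, 14 reached the minimum, with a median log2 ratio of -0.0091 for day 14 over day 7. Lama4, a laminin chain of vessel and muscle membranes, stood at 208, 120 and 43.4 CPM. Sparc, which binds collagen and assists its deposition, stood at 9710, 11681 and 13148 CPM. From day 4 to day 7, the 4 lists, with 22, 10, 9 and 14 genes tested, had 1 gene at least 2-fold higher (Itga10), where 6.09% of all genes were. At least 2-fold lower were 4 (Loxl2, Itga2, Lama5 and Nid2), where 4.84% were. Of these, Itga2 had 36 and 4 UMIs on days 4 and 7. Lama5 had 18 and 8 UMIs, and the interval of its ratio held 1 (0.182 to 1.17).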

How the data were processed

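Per the study's methods and the submitters' processing notes, the authors aligned Drop-seq reads to GRCm38 with STAR (2.5.2a in the notes, another version in the methods), with Picard 2.6.0 and SAMtools 1.2 also in the notes, and counted UMIs per gene and cell. The annotation release and strand setting are not given in the sources used here. For 13 members GENCODE M21 has a gene on the opposite strand, with at least 20 UMIs of its own for 5 of them (Col5a1, Col4a1, Col4a2, Col4a3 and Col18a1). The deposited values are raw UMI counts, not normalized. The authors' merged table, restricted by the authors' filter (a minimum of 500 genes, mitochondrial UMIs of up to 10%), was used and holds the same counts as the tables per day, with 0 differing entries. Its 495 columns of no sample used here were left out.

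UMIs were summed per day and scaled to 1000000. With 1 library per day there is no test. A gene is counted as higher or lower from a 2-fold ratio of CPM, over genes with at least 20 UMIs in the 3 days. A day at 0 UMIs is set to 3 UMIs where a ratio can then be formed. Cells of at least 1500 UMIs were thinned to 1500 (seed 1) to rank them by marker lists, while collagen levels came from all their UMIs. Groups by the steroidogenic list on days 4 and 7, and by the contractile list on day 14, were not made, because the limits would have been 0 and 1 UMIs. Doublets were not called, and leaving out the 5% of cells with the most UMIs stands in for that. The ratios and their intervals were tried on simulated Poisson counts, which hold no difference between libraries, and the thinning against its expected values. The grouping of cells and the letter matches were not tried in this way.

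Values per day were planned for every fibrillar and basement membrane member and for other members with at least 100 CPM on any day. Those of the remaining members are printed as well, and pathway genes come from 4 lists. The count of basement membrane partners past the 2-fold ratio on day 14 against day 7 is not reported here. The members and lists were chosen with earlier results of these data known. In its text, the study itself named cluster markers from data that include these libraries. Among them are 5 of the 9 steroidogenic, 4 of the 8 contractile and 3 of the 12 proliferation genes. Low levels of a further steroidogenic gene, Lhcgr, were reported there for day 14 Leydig cells. The study named 3 of the 4 interstitial progenitor genes for a cluster of freshly sorted cells, which are not used here. Computation used Python 3.11.15, numpy 2.4.6, scipy 1.17.1, pandas 2.3.3 and matplotlib 3.10.9.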

Additional observations from a re-analysis of the deposited data

Results flagged for a closer look

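Collagen mRNA was also present in barcodes that the authors' filter leaves out and that enter no comparison above. The collagen genes stood at 20225 CPM in 320 such barcodes of day 4, 34134 CPM in 229 of day 7 and 16374 CPM in 327 of day 14, against 15866, 17109 and 15685 CPM in the cells kept. These barcodes had medians of 569, 580 and 319 UMIs, held 160789, 119706 and 123852 UMIs in all, and included 37, 38 and 44 barcodes with 0 UMIs. The signal was singled out because it lies in data outside the main measurement, and its source was not tested.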

How the results depend on the processing

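No paired analysis was possible because each day has 1 library, whose replicate number is only a name. With 1 library a day, differences between days hold any difference between cultures, media and libraries. Low genes are limited by depth (3 UMIs are 0.237, 0.258 and 0.563 CPM on days 4, 7 and 14).

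Values here are log2 ratios. No summed class ratio moved by more than its counting interval with all barcodes kept. For day 7 over day 4, the fibrillar ratio (0.083) was 0.061 in cells with 800 genes or more and mitochondrial UMIs of up to 5%, 0.070 without the 5% of cells with the most UMIs, 0.13 with equal weight per cell, 0.097 after thinning and -0.024 when scaled to the median of all genes. The basement membrane ratio (0.068) was 0.036 without the top cells, -0.039 when scaled and 0.12 with Col15a1 and Col18a1 counted in this class, and the ratio of the others (0.42) was 0.31 when scaled. For day 14 over day 7, the fibrillar ratio (-0.081) was -0.059 with the stricter filter, -0.10 with equal weight, -0.10 after thinning and 0.055 when scaled. The basement membrane ratio (-0.29) was -0.22 without the top cells, -0.15 when scaled and -0.42 with Col15a1 and Col18a1, and the ratio of the others (-0.14) was -0.0026 when scaled and 0.33 without that pair, which follows from the low day 14 level of Col15a1. Between contractile groups of day 7, the fibrillar ratio (-0.29) was -0.34 without thinning before ranking and -0.35 with equal weight, that of basement membrane genes (-0.18) -0.26 and -0.23, and that of the others (-0.21) -0.26 with equal weight. Between steroidogenic groups of day 14, the fibrillar ratio (-0.84) was -0.87 and the basement membrane ratio (-1.13) -1.20 without thinning, and the latter -1.04 with equal weight. Where no construction is named, the cause was not tested.

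With a minimum of 1 UMI in place of 20, 7 collagen genes were at least 2-fold higher and 4 lower on day 7 than on day 4, and with a minimum of 100 UMIs 0 were lower, since other genes then enter or leave the count. Of 22 member ratios past 2-fold between successive days, 6 fell under it in some alternative (Col4a6 and Col7a1 for day 7 over day 4, and Col13a1, Col4a3, Col5a3 and Col28a1 for day 14 over day 7) and 0 changed sign. Of the other ratios, 6 passed 2-fold in some alternative (Col13a1 for day 7 over day 4, and Col3a1, Col14a1, Col18a1, Col4a6 and Col6a4 for day 14 over day 7). Of all 56 ratios 7 changed sign, those of Col18a1, Col4a4, Col6a4 and Col28a1 for day 7 over day 4 and of Col14a1, Col27a1 and Col4a2 for day 14 over day 7.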
